A study of Homo sapiens with 15 samples.

Results

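The genes of major histocompatibility complex (MHC) class I antigen presentation described here are HLA-B, HLA-C, HLA-E, HLA-F, B2M, TAP1, TAP2, PSMB8 and PSMB9. They were taken from the deposited count table by gene symbol, which found all 9 among its 18858 genes. RNA came from the established breast cancer line MDA-MB-231, in 5 groups of 3 libraries. Control cells received no transfection, siControl cells a pool of non-targeting siRNAs, siYAP cells a pool directed at YAP1, siTAZ cells a pool directed at WWTR1, which encodes TAZ, and siYAP+TAZ cells both of these pools. Transfected cells were kept for 48 h and then spent 5 to 6 h on gelatin before RNA was taken, and the comparisons ask how the loss of these transcriptional co-activators changes gene expression in such cells. Library numbers are 16, 21 and 26 for Control, and values are given in this order. They are 17, 22 and 27 for siControl, 18, 23 and 28 for siYAP, 19, 24 and 29 for siTAZ, and for siYAP+TAZ 20, 25 and 30. As a model this is 1 cell line treated with siRNA pools, and because siYAP+TAZ cells received both pools, the larger total amount of siRNA and the loss of both proteins cannot be told apart. The sum of counts over all genes lay between 18696737 and 30107312 per library, so most members had many reads, whereas HLA-F had few.

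Class I molecules display peptides from the inside of a cell to CD8 T cells and natural killer cells. The proteasome cuts proteins into peptides, and its inducible form carries the subunits PSMB8 and PSMB9 in place of their constitutive counterparts. The TAP1 and TAP2 transporter carries peptides into the endoplasmic reticulum, where they are loaded on a heavy chain such as HLA-B paired with the light chain B2M. Interferons and NF-kB are known to raise these genes together, and tumour cells are known to escape T cells by lowering them.

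In the following, normalized counts are counts divided by the TMM-scaled size of the library relative to the mean library, and a gene is called changed at a Benjamini-Hochberg adjusted p of at most 0.05 over all 18858 genes in edgeR's quasi-likelihood test. The RNA comes from independent sets of experiments, with no label that assigns a library to its set, so p-values measure the spread between the libraries of a group. The targeted transcripts were read before the members. Every library lay below all siControl libraries for each gene its pools target, with YAP1 least reduced in siYAP library 23 at 2764 normalized counts. Over all 15 libraries and without a block for their numbers, only WWTR1 in siTAZ was called in edgeR (adjusted p = 0.0187). This call was lost without libraries 26 to 30. The log2 fold changes in siYAP+TAZ, -1.06 for YAP1 and -0.62 for WWTR1, were not called (edgeR adjusted p = 0.0723 and 0.199), nor was -1.51 for YAP1 in siYAP (edgeR adjusted p = 0.0992). DESeq2 called 1 of the 2 targets lower in siYAP+TAZ. YAP1 was above its level in siYAP libraries 18 and 28, and WWTR1, at 1133, 1123 and 1284 normalized counts, was above every siTAZ library (828, 254 and 521), so that siYAP+TAZ and siTAZ also differed in how much WWTR1 RNA was left. The cells also carried the RNA of their line. VIM, CD44, CAV1, EGFR, AXL and KRT18 averaged between 252 and 1469 CPM (counts scaled to a common library size), against 1.92 for ERBB3 and 0.0879 for the progesterone receptor gene PGR. Of these 6 line markers, AXL, a receptor tyrosine kinase gene, and CAV1, which encodes the coat protein of caveolae, fell in siYAP+TAZ, with log2 fold changes of -0.51 (SE 0.079) and -0.35 (SE 0.085; edgeR adjusted p = 1.99e-04 and 0.00650), and the other 4 were not called. In bulk RNA, fewer cells with a transcript and less of it per cell cannot be told apart.

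The libraries numbered 26 to 30 stood apart in most of the members, in transfected and untransfected cells alike. In 7 of the 9 genes (HLA-B, HLA-C, HLA-F, B2M, TAP1, PSMB8 and PSMB9) the library of this run was the highest of its group in 5 of 5 groups. For HLA-F it reached 1.37 to 1.93 times the mean of the other libraries of its group, and for B2M 1.18 to 1.25 times. HLA-E lacked this pattern, since library 26 to 30 was the highest in 1 of 5 groups. For TAP2 it was the highest in 4 of 5 groups, all but Control, with ratios between 0.925 and 1.12. The share of counts on mitochondrial genes was highest of all 15 libraries in libraries 26, 27 and 30 (5.03%, 4.79% and 4.92%), but 2.52% in library 28 and 3.97% in library 29, and its part in the members' values was not tested. The labels do not say that consecutive numbers form a set, so values are given below over all libraries, within each run of 5 numbers (16 to 20, 21 to 25, 26 to 30) and, for the counts of members called, also without libraries 26 to 30.

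In siYAP+TAZ against siControl, 4 of the 9 members were called, all of them higher: HLA-C, HLA-E, HLA-F and PSMB9. Among all genes tested, 18.4% were called in this comparison and 9.97% were called higher. HLA-F alone was also past a log2 fold change of 1 in either direction, as were 3.46% of all genes by both thresholds. Of the remaining members, HLA-B, B2M, TAP1 and PSMB8 had positive and TAP2 a negative log2 fold change, none of them called. The median over the 9 members was a log2 fold change of 0.39, against -0.0048 over all genes. In 7 of the 9 members the siYAP+TAZ and siControl libraries did not overlap, as in 36.4% of all genes. The count of calls depended on which library was left out. It was 0 without siControl library 17 or 22 (13.4% and 13.3% of all genes then called) and 4 without siControl library 27 (14.7%). It was 3, 2 and 1 without siYAP+TAZ library 20, 25 and 30 (13.6%, 14.1% and 15.5%). Such fits leave the runs of library numbers unequal between the groups, and why the count moved was not tested. Without libraries 26 to 30, a fit chosen after seeing the data, the count was 6, all higher, against 19.9% of all genes. The count with a block for the run is given with the dependence on the processing.

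**Figure D1:**
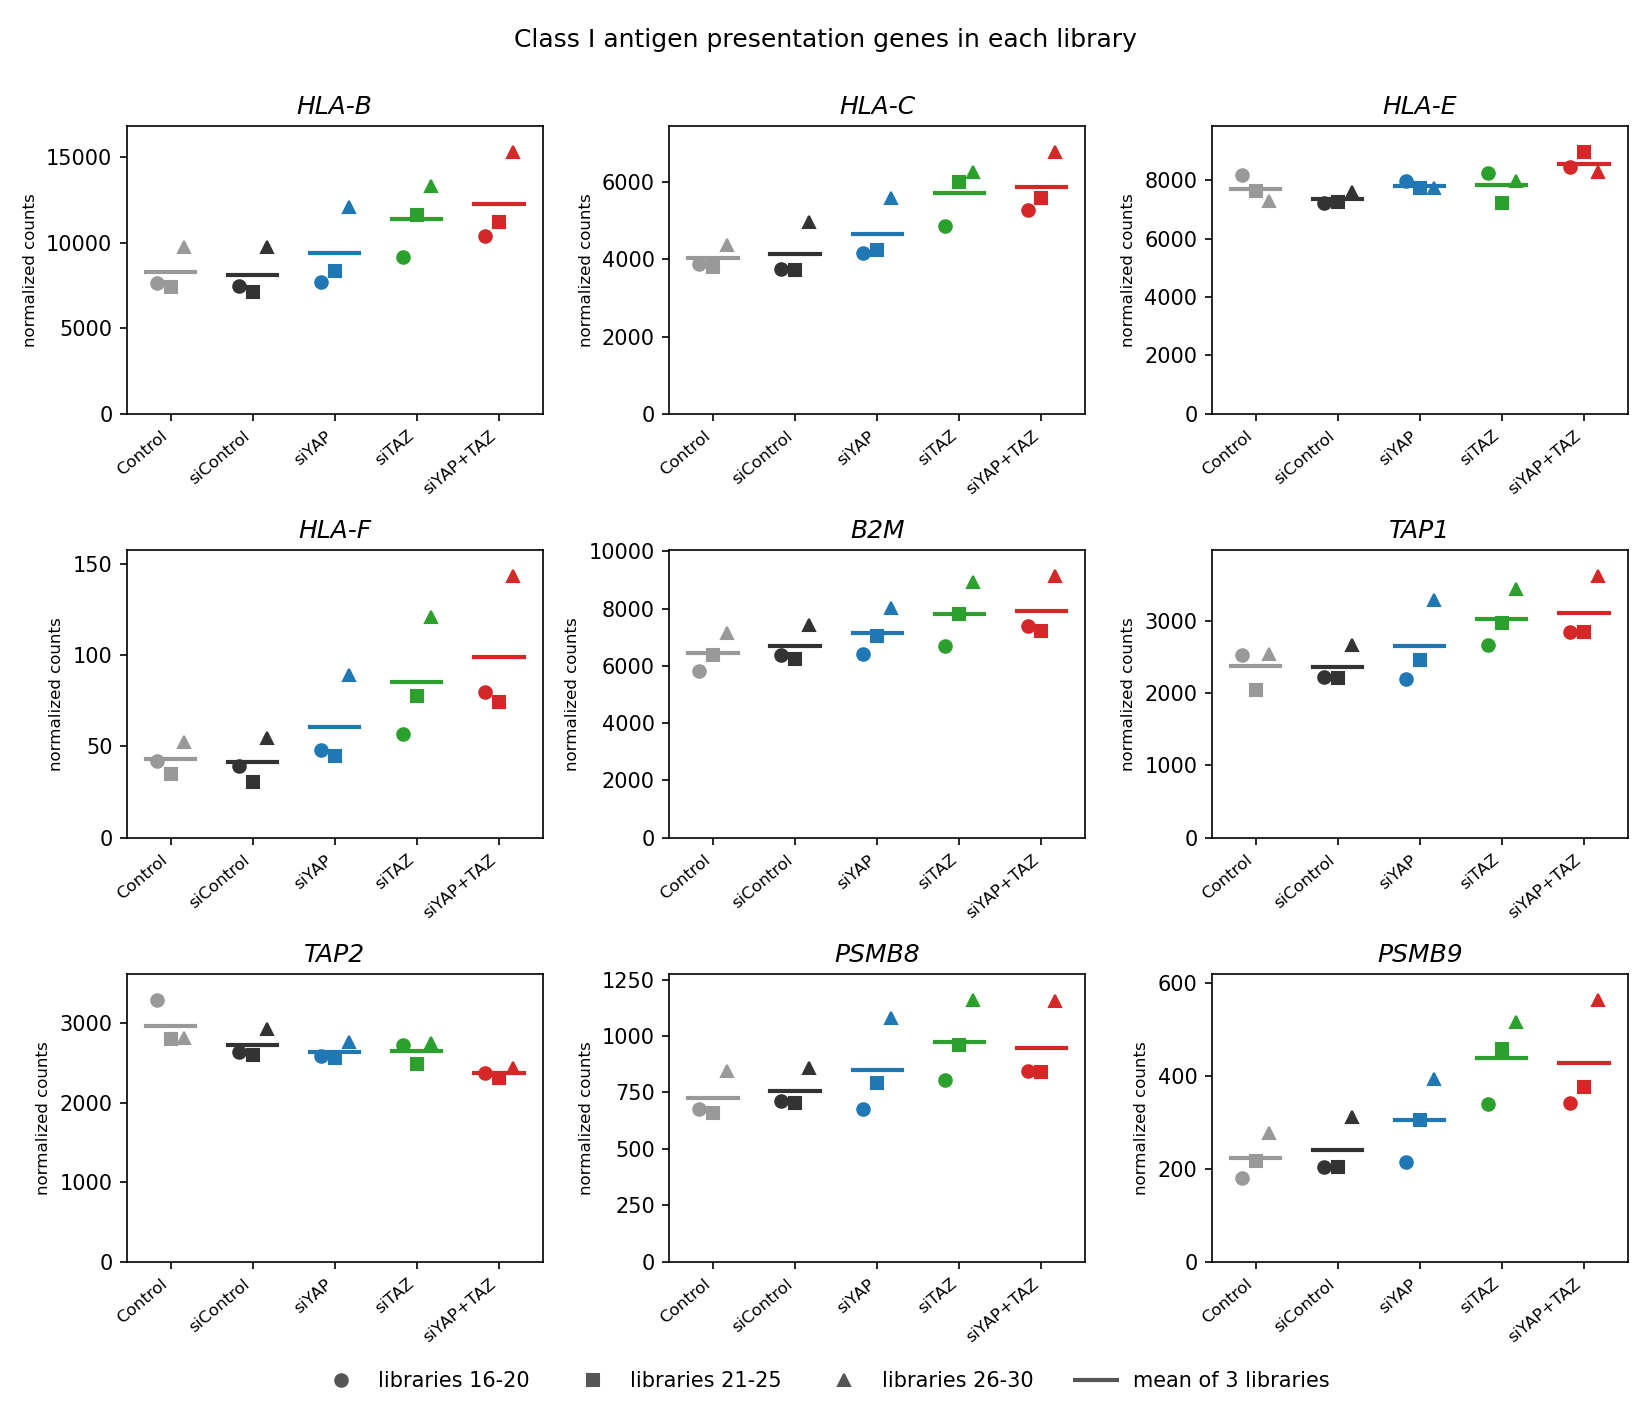
Normalized counts (vertical axes, each from 0) of the 9 members in the 5 groups, with 1 point per library, its shape giving the run of library numbers, and a line at the group mean. In HLA-B, HLA-C, HLA-F, B2M, TAP1, PSMB8 and PSMB9 the triangles of libraries 26 to 30 lie highest in every group, and in 7 of the 9 panels the siYAP+TAZ points do not overlap the siControl points.

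The heavy chains came first. HLA-B, a classical heavy chain that presents peptides to CD8 T cells, occupies bases 31353872 to 31367067 of chromosome 6, minus strand (GRCh38, GENCODE release 44). It had 7641, 7378 and 9762 normalized counts in Control, 7434, 7105 and 9726 in siControl, and 7671, 8351 and 12089 in siYAP. The counts were 9175, 11640 and 13302 in siTAZ and 10383, 11197 and 15278 in siYAP+TAZ. All siYAP+TAZ libraries thus lay above all Control and siControl libraries, while siYAP and siTAZ each overlapped siControl through its library 27. The log2 fold change was 0.60 in siYAP+TAZ (SE 0.21, edgeR adjusted p = 0.0741), so HLA-B was not called, although it was called with DESeq2 (adjusted p = 0.0108) and with limma-voom (adjusted p = 0.0313). Within the runs, the log2 ratio of siYAP+TAZ to siControl was 0.48, 0.66 and 0.65.

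HLA-C, the other classical heavy chain listed and the main ligand of killer cell immunoglobulin-like receptors, lies on the same strand from 31268749 to 31272130. HLA-C had normalized counts of 3894, 3804 and 4378 in Control, 3742, 3726 and 4962 in siControl, and 4166, 4249 and 5603 in siYAP. They were 4856, 6018 and 6274 in siTAZ and 5282, 5605 and 6779 in siYAP+TAZ. Only siYAP+TAZ was clear of siControl in every library, by a narrow margin over library 27. HLA-C rose in siYAP+TAZ, its log2 fold change being 0.51 (SE 0.14; edgeR adjusted p = 0.0217) and within-run log2 ratios of 0.50, 0.59 and 0.45. The call was lost without siControl library 17 (adjusted p = 0.0889), siControl library 22 (0.0897) or siYAP+TAZ library 30 (0.0898).

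HLA-E, which presents signal peptides of other class I chains to the natural killer receptor NKG2A, lies on the plus strand from 30489509 to 30494194. It had 8168, 7644 and 7297 normalized counts in Control, 7214, 7256 and 7580 in siControl, and 7966, 7718 and 7742 in siYAP. It had 8261, 7211 and 7985 in siTAZ and 8451, 8954 and 8276 in siYAP+TAZ. The siYAP+TAZ libraries were the highest of all 15, although library 30 exceeded siTAZ library 19 by little. The rise was small, a log2 fold change of only 0.22 (SE 0.068, edgeR adjusted p = 0.0304), with within-run log2 ratios of 0.23, 0.30 and 0.13. With Control as the reference it was 0.15 and not called (edgeR adjusted p = 0.132), and the call was also lost without siControl library 17 or 22 or without siYAP+TAZ library 20 or 25.

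HLA-F, a non-classical heavy chain that can reach the surface of activated cells without peptide, lies on the plus strand from 29722775 to 29738528. It was the least abundant member, with 42.0, 35.0 and 52.6 normalized counts in Control, 39.1, 30.5 and 54.7 in siControl, and 48.3, 44.5 and 89.3 in siYAP. It reached 56.8, 77.3 and 120.8 in siTAZ and 79.7, 74.1 and 143.2 in siYAP+TAZ. Both siTAZ and siYAP+TAZ lay above siControl in every library, with siTAZ library 19 just above siControl library 27. HLA-F rose in siYAP+TAZ, its log2 fold change being 1.28 (SE 0.34, edgeR adjusted p = 0.0156). The within-run log2 ratios were 1.03, 1.28 and 1.39. The call was lost without siControl library 17 (adjusted p = 0.0600), siControl library 22 (0.0752) or siYAP+TAZ library 30 (0.0912).

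Some counts of these chains are uncertain. Of the stretches of 50 bases in the canonical transcript, 2.56% in HLA-B, 6.76% in HLA-C, 6.16% in HLA-E and 1.89% in HLA-F occur unchanged in a transcript of another gene, mostly another class I gene. HLA alleles of the line may also differ from the reference genome, which was not analysed here. It is not stated if reads were counted by strand, and genes on the opposite strand cover 23.7% of the canonical exonic bases of HLA-B and 42.0% of those of HLA-F, but none of HLA-C and HLA-E.

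The sequence before their starts is shown for those with shared motifs. RefSeq promoters (GRCh38.p14) were at hand for 8 of the 9 members, HLA-E being the exception, and the 250 bases before each start were searched on both strands. The motifs were GAAANNGAAA, the core of an interferon-stimulated response element, GAANNGAAAC, its variant in classical class I genes, GGGANNNNCC, the core of an NF-kB site, and CCAAT, the Y box bound by NF-Y. These motifs were chosen with the member sequences in view, and a planned box of the class I promoter was dropped, so their presence in members is a description and no test. The same windows of all 35116 promoters held them in 3.02%, 1.23%, 22.6% and 32.0%, in that order. In the stretches below, which leave out bases annotated as untranslated in any transcript, capitals mark matches on either strand. HLA-B and HLA-C share an NF-kB core followed by GAANNGAAAC, read on the opposite strand, and HLA-F has GAAANNGAAA at the corresponding distance from its start.
HLA-B, chr6:31357294-31357364, minus strand: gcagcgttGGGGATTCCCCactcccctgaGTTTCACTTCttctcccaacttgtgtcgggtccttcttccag
HLA-C, chr6:31272136-31272292, minus strand: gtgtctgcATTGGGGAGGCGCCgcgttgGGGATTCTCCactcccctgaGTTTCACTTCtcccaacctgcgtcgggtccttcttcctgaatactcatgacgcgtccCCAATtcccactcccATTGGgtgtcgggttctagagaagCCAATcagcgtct
HLA-F, chr6:29723270-29723305, plus strand: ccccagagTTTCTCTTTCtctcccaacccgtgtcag
The match to the response element ends 147 bases before the start in HLA-B and HLA-F and 143 bases before it in HLA-C. In HLA-C a CCAAT match overlaps a further NF-kB core match by its last base. In GENCODE release 44 all 71 bases shown for HLA-B and all 36 for HLA-F lie in an exon of some transcript, as do 53 of the 157 for HLA-C. A match describes these letters only, and binding was not measured.

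B2M, the light chain that every class I heavy chain needs to reach the surface in its folded form, occupies bases 44711358 to 44718851 of chromosome 15. Normalized counts of B2M were 5813, 6364 and 7163 in Control, 6374, 6246 and 7432 in siControl, and 6429, 7045 and 8014 in siYAP. They were 6685, 7797 and 8942 in siTAZ and 7404, 7212 and 9129 in siYAP+TAZ. All groups overlapped siControl, because siControl library 27 was above siYAP+TAZ libraries 20 and 25. The log2 fold change in siYAP+TAZ was 0.24 (SE 0.12, edgeR adjusted p = 0.183), which was not called, and the within-run log2 ratios were 0.22, 0.21 and 0.30. Without siYAP+TAZ library 30 the log2 fold change was 0.14. No 50-base stretch of B2M occurs in another gene, and no other gene overlaps its canonical exons. Its promoter, shown because it joins overlapping matches to GAAANNGAAA with an NF-kB core and a CCAAT box, has 76 of 116 bases in an exon of a non-coding B2M transcript.
B2M, chr15:44711365-44711480, plus strand: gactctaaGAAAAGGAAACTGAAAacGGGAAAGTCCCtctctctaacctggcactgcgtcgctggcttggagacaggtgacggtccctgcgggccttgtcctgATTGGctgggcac

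The transporter genes followed. TAP1, which encodes a subunit of the peptide pump, occupies bases 32845209 to 32853816 of chromosome 6, minus strand. It had 2533, 2044 and 2545 normalized counts in Control, 2216, 2211 and 2668 in siControl, and 2197, 2462 and 3281 in siYAP. It had 2661, 2966 and 3440 in siTAZ and 2842, 2851 and 3616 in siYAP+TAZ. The siYAP+TAZ libraries lay above all siControl libraries, and siTAZ missed this by library 19, which was just below siControl library 27. The log2 fold change in siYAP+TAZ was 0.39 (SE 0.15, edgeR adjusted p = 0.0890), not called, and within the runs the log2 ratio was 0.36, 0.37 and 0.44. TAP1 was called with DESeq2 (adjusted p = 0.0485) and not with limma-voom. The antisense gene PSMB8-AS1 covers 21.5% of the canonical exonic bases of TAP1.

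TAP2, the partner subunit without which the pump does not work, lies on the same strand from 32821833 to 32838739. TAP2 had normalized counts of 3289, 2797 and 2814 in Control, 2637, 2602 and 2923 in siControl, 2589, 2557 and 2770 in siYAP, and 2725, 2486 and 2755 in siTAZ. In siYAP+TAZ they were 2370, 2309 and 2440, the lowest of all 15 libraries. TAP2 had a log2 fold change equal to -0.20 (SE 0.076, edgeR adjusted p = 0.0832), not called, with within-run log2 ratios of -0.15, -0.17 and -0.26. With Control as the reference TAP2 was called lower, at a log2 fold change of -0.32 (edgeR adjusted p = 0.00587). Its counts are uncertain in another way than those of TAP1, since 35.3% of its 50-base stretches are shared with a gene on the same strand that covers 35.8% of its canonical exonic bases.

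The first TAP1 start lies 488 bases from that of PSMB9, which runs the other way, so the space between them can serve as a promoter for both. The TAP1 stretch is shown for this shared position and for its pair of overlapping GAAANNGAAA matches, and none of its bases lie in an annotated exon.
TAP1, chr6:32853817-32853954, minus strand: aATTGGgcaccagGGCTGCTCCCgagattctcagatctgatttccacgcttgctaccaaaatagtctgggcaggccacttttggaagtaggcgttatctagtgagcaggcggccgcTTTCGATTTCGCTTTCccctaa
Its first match, a CCAAT box read on the opposite strand, is made of the same bases as the only match before PSMB9. TAP2 held GAAANNGAAA between 58 and 49 bases before its start, and PSMB8 held no match before either of its 2 starts. By gene, GAAANNGAAA was found in 4 of the 8 members (HLA-F, B2M, TAP1 and TAP2), GAANNGAAAC in 2, GGGANNNNCC in 4 and CCAAT in 6.

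PSMB8 and PSMB9 encode inducible catalytic subunits of the proteasome. PSMB8, which cuts after hydrophobic residues, lies from 32840717 to 32844679 on the minus strand of chromosome 6. It had 675, 657 and 843 normalized counts in Control, 712, 704 and 857 in siControl, and 676, 792 and 1078 in siYAP. It had 805, 960 and 1158 in siTAZ and 847, 842 and 1153 in siYAP+TAZ. As in B2M, siControl library 27 lay above siYAP+TAZ libraries 20 and 25, so the groups overlapped. The log2 fold change was 0.33 in siYAP+TAZ (SE 0.18, edgeR adjusted p = 0.261), with within-run log2 ratios of 0.25, 0.26 and 0.43. Without siYAP+TAZ library 30 it was 0.16 (edgeR adjusted p = 0.627).

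PSMB9, which replaces the caspase-like subunit PSMB6, lies on the plus strand from 32844136 to 32859851, and its span crosses those of PSMB8 and TAP1 without overlap of the canonical exons. PSMB9 had normalized counts of 180, 216 and 276 in Control, 204, 204 and 312 in siControl, and 215, 305 and 393 in siYAP. They were 340, 457 and 517 in siTAZ and 342, 375 and 563 in siYAP+TAZ. Both siTAZ and siYAP+TAZ were above siControl in every library, while siYAP overlapped it. PSMB9 rose in siYAP+TAZ, its log2 fold change being 0.84 (SE 0.27, edgeR adjusted p = 0.0453), with within-run log2 ratios of 0.75, 0.88 and 0.85. The call was lost without siControl library 17 (adjusted p = 0.143), siControl library 22 (0.149), siYAP+TAZ library 25 (0.0580) or siYAP+TAZ library 30 (0.166).

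Per length, the members spanned a wide range. In siControl, CPM per kilobase of canonical transcript was 299.8 ± 29.2 (SD, n = 3) for B2M, 223 ± 39.3 for HLA-B, 122 ± 3.33 for HLA-E and 114 ± 19.4 for HLA-C. It was 37.3 ± 4.13 for TAP1, 28.5 ± 3.25 for PSMB8, 20.4 ± 1.32 for TAP2, 9.99 ± 2.59 for PSMB9 and 1.18 ± 0.351 for HLA-F. HLA-E and HLA-C were the neighbours in this order that differed by less than the SD of HLA-C. In siYAP+TAZ, B2M at 355 ± 47.3 and HLA-B at 338 ± 72.2 differed by less than either SD, and HLA-C at 161 ± 21.6 stood level within its SD with HLA-E at 142 ± 5.84. TAP2 at 17.8 ± 0.493 and PSMB9 at 17.7 ± 4.94 were the closest pair there.

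The inducible subunits were set against their constitutive counterparts per length, as a description without a test. PSMB8 stood at 24.1%, 24.8% and 31.9% of PSMB5 in siControl and at 33.8%, 31.4% and 47.1% in siYAP+TAZ. PSMB9 stood at 7.79%, 8.31% and 11.5% of PSMB6 in siControl, at 13.2%, 18.1% and 18.1% in siTAZ and at 14.2%, 15.8% and 21.2% in siYAP+TAZ. The ratio of PSMB9 in both of these knockdowns was above every siControl library, whereas that of PSMB8 overlapped. PSMB10, the remaining inducible catalytic subunit and not a member, stood at 6.59%, 6.11% and 5.88% of PSMB7 in Control, above every siControl library (5.40%, 5.34% and 5.27%), and at 8.13%, 9.54% and 9.05% in siYAP+TAZ. Within its group this ratio was highest in library 28 of siYAP and 29 of siTAZ, but not in libraries 26, 27 and 30. A gene on the same strand covers 56.1% of the canonical exonic bases of PSMB10. The denominators PSMB5, PSMB6 and PSMB7 were not called in siYAP+TAZ, with log2 fold changes of -0.15, -0.07 and -0.17 (edgeR adjusted p = 0.112, 0.660 and 0.405).

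**Figure D2:**
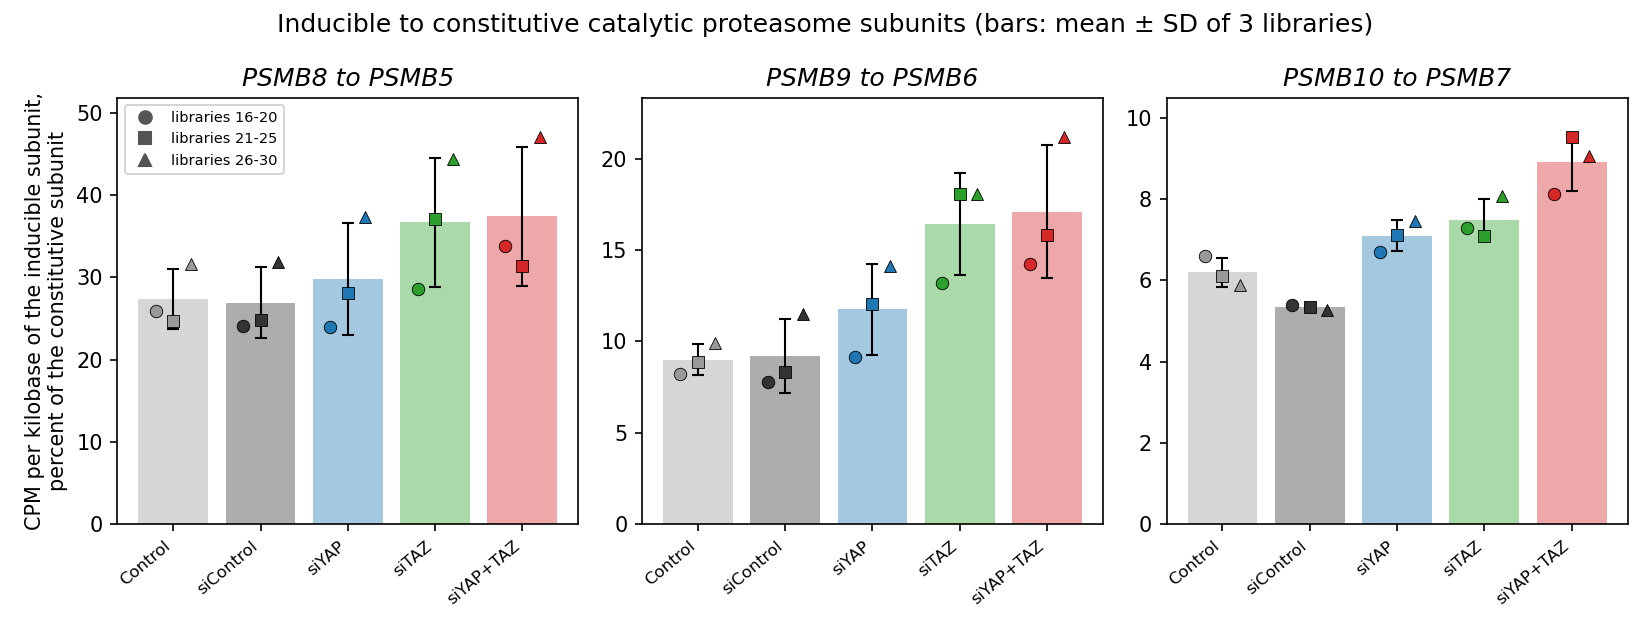
CPM per kilobase of each inducible catalytic proteasome subunit as a percent of its constitutive counterpart (vertical axes from 0), as bars with the mean and SD of 3 libraries and 1 point per library. PSMB9 to PSMB6 averages 9.20% in siControl and 17.1% in siYAP+TAZ, and PSMB10 to PSMB7 averages 5.34% and 8.91%.

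In the single knockdowns, edgeR without a block for the run of library numbers called no member over all 15 libraries. The counts with that block differ and are given with the dependence on the processing. With siYAP, 0 of 9 were called against 0.933% of all genes, and 0 had an unadjusted p under 0.05 against 2241 of all genes. DESeq2 and limma-voom called 0 members as well, and 2.12% and 0.88% of all genes. The log2 fold changes ran from -0.04 (TAP2) to 0.54 (HLA-F), with a median of 0.16 against 0.0025 over all genes, and TAP2 turned to 0.0056 when counts were scaled by library size. In 1 of the 9 members (HLA-E) the siYAP and siControl libraries did not overlap, as in 19.5% of all genes. The within-run log2 ratios to siControl were positive in 3 of 3 runs for HLA-B, HLA-C, HLA-E, HLA-F, B2M and PSMB9, and negative in 3 of 3 for TAP2. Without siYAP library 28, the log2 fold change of HLA-F was 0.17, that of PSMB9 0.12 instead of 0.34, and those of HLA-B, TAP1 and PSMB8 turned negative. Without libraries 26 to 30 edgeR called 0 members and 1.18% of all genes in siYAP.

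With siTAZ, 0 of 9 members were called by edgeR without a block, against 2.03% of all genes. However, 5 members had an unadjusted p under 0.05 (3023 of all genes did). DESeq2 called 2, HLA-C and PSMB9, and 4.25% of all genes, while limma-voom called 0 members and 1.88%. The log2 fold changes were 1.02 for HLA-F (SE 0.35, edgeR adjusted p = 0.146), 0.87 for PSMB9 (SE 0.27, edgeR adjusted p = 0.121), 0.49 for HLA-B (SE 0.22, edgeR adjusted p = 0.285) and 0.46 for HLA-C (SE 0.14, edgeR adjusted p = 0.111). Their median over the 9 members was 0.36, against 0 over all genes. In 2 of 9 members, HLA-F and PSMB9, the siTAZ and siControl libraries did not overlap, as in 20.9% of all genes. Without siTAZ library 19 or siControl library 27, HLA-C was called, as were 4.78% and 1.5% of all genes. Without libraries 26 to 30, 5 members were called higher (HLA-B, HLA-C, HLA-F, TAP1 and PSMB9), against 4.68% of all genes.

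**Figure D3:**
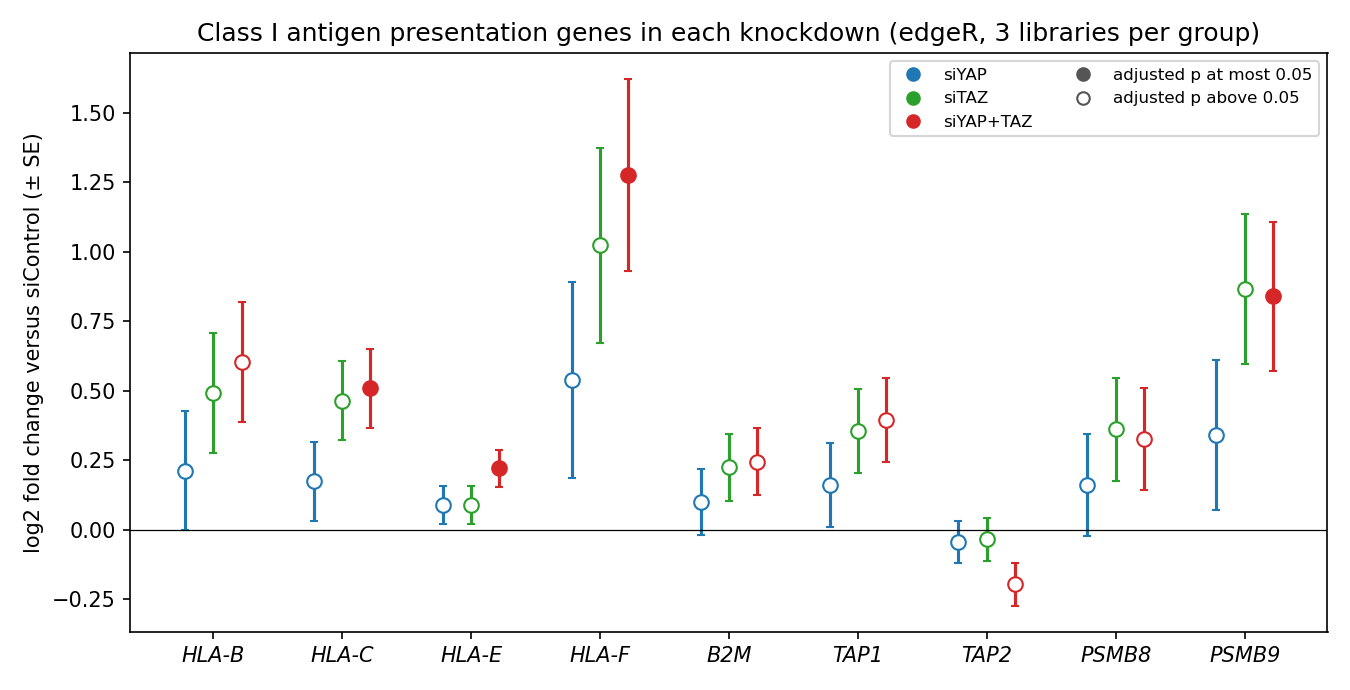
Log2 fold changes against siControl with SE (vertical axis) for the 9 members in siYAP, siTAZ and siYAP+TAZ, from edgeR with 3 libraries per group, with filled points at an adjusted p of at most 0.05. The filled points are HLA-C, HLA-E, HLA-F and PSMB9 in siYAP+TAZ, and TAP2 is the only member below 0, in all of these knockdowns.

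The 3 knockdowns share their siControl libraries, so their values stand side by side and not as independent results. Set directly against siYAP, siYAP+TAZ had 0 of 9 members called in edgeR without a block (5.13% of all genes). An unadjusted p under 0.05 was found for 2 members (HLA-C and HLA-F) and for 3613 of all genes. The log2 fold changes ran from -0.15 for TAP2 to 0.74 for HLA-F. Against siTAZ, siYAP+TAZ also had 0 of 9 called in edgeR (5.44% of all genes), with TAP2 the 1 member at an unadjusted p under 0.05, as 3632 of all genes were. These log2 fold changes ran from -0.16 for TAP2 to 0.25 for HLA-F and were 0.04 for HLA-C and -0.03 for PSMB8. Without siYAP+TAZ library 30 those of HLA-B, HLA-C, HLA-F, B2M and TAP1 turned negative.

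The interaction of siYAP and siTAZ asks whether the double knockdown departs from the sum of the single ones on the log2 scale. In edgeR 0 of 9 members were called, against 0.0106% of all genes, and 0 had an unadjusted p under 0.05, against 1104 of all genes. The estimates were negative in 8 of 9 members, from -0.37 in PSMB9 (SE 0.37) to 0.04 in HLA-E, the exception. In siControl against Control, which shows the effect of transfection, 0 of 9 members were called in edgeR and 0% of all genes, with 0 members and 398 genes at an unadjusted p under 0.05. The log2 fold changes lay between -0.13 (TAP2) and 0.10 (PSMB9). DESeq2 and limma-voom called 0 members in each of these 4 comparisons, and of all genes 6.85% and 5.66% against siYAP, 6.99% and 5.31% against siTAZ, 0.111% and 0.0106% for the interaction, and 0% for siControl against Control. Without libraries 26 to 30 edgeR called 2 members (HLA-B and HLA-C, both higher) and 7.76% of all genes against siYAP. It then called 0 members against siTAZ, for the interaction and for siControl against Control, with 7.51%, 0.154% and 0.0318% of all genes.

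Libraries were also compared within each run, which the labels do not define as a set. In siYAP+TAZ the log2 ratio to the siControl library of the same run was positive in 3 of 3 runs for 8 members, and negative in 3 of 3 for TAP2. In siTAZ it was positive in 3 of 3 runs for 7 members, HLA-E being positive in 2 and TAP2 in 1. For TAP1 the ratios in siYAP+TAZ ran from 0.36 to 0.44, and for HLA-F in siTAZ they were 0.54, 1.34 and 1.14. In siTAZ, library 24 had the highest ratio for 7 members, all but HLA-E and TAP2.

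**Figure D4:**
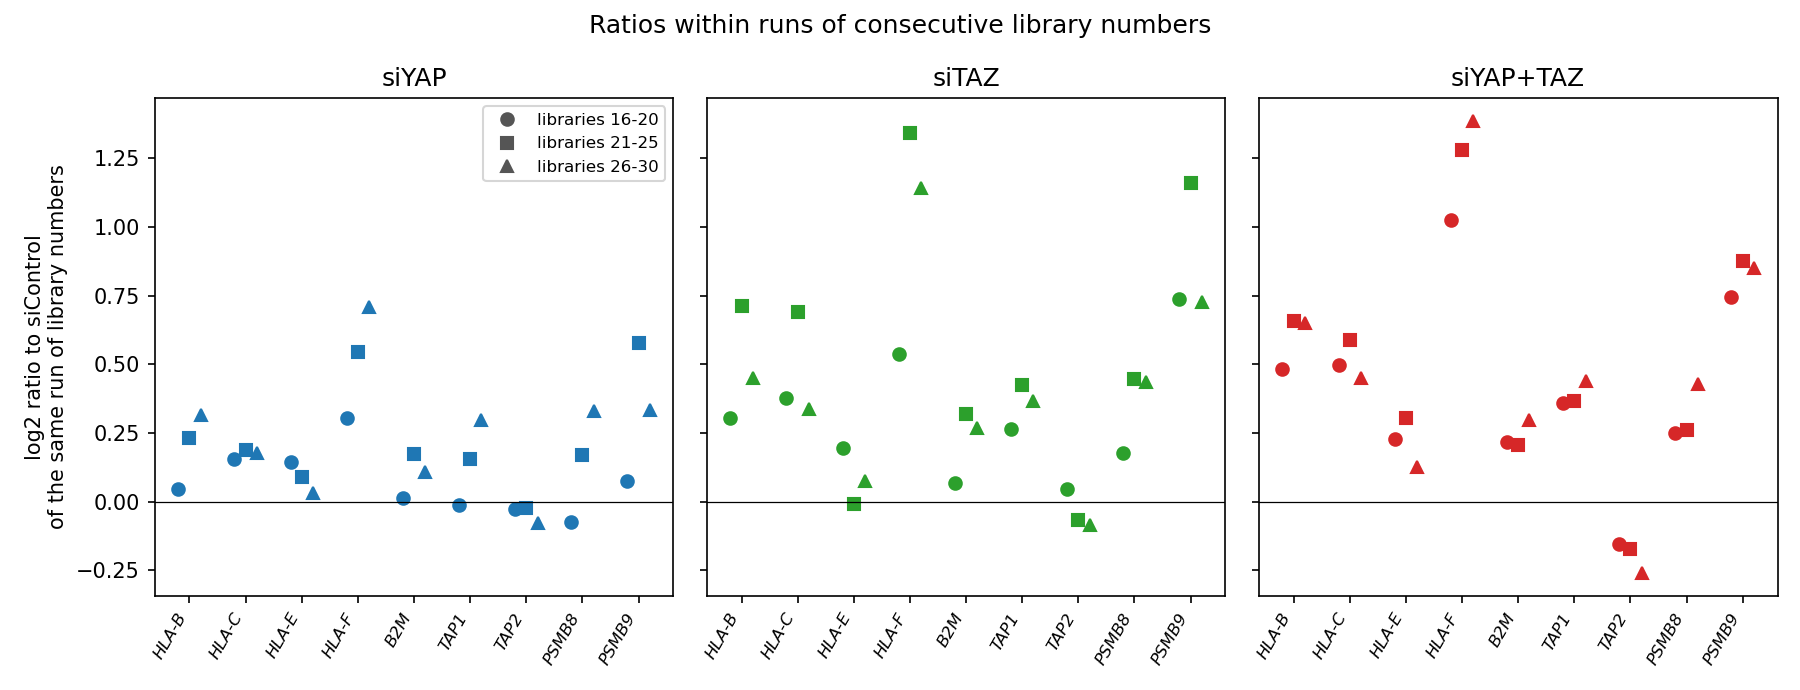
Log2 ratio of each knockdown library to the siControl library of the same run of library numbers (vertical axis) for the 9 members, with 1 panel per knockdown and the point shape giving the run. In siYAP+TAZ, 8 members lie above 0 in 3 of 3 runs and TAP2 below 0 in 3 of 3.

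Most members followed each other over the 15 libraries. As a description, with groups and runs shared by all points, Pearson's r between log2 CPM values was 0.976 for HLA-B and HLA-C, 0.974 for HLA-B and HLA-F, 0.949 for HLA-B and B2M, and 0.937 for PSMB8 and PSMB9. HLA-E and TAP2 were apart from these. HLA-E had r between 0.167 (PSMB8) and 0.445 (HLA-F) with the other members except TAP2, and the r of TAP1 and TAP2, subunits of the same pump, was -0.214. Outside the members, the genes most like their mean scaled profile, among 10632 whose mean normalized count was 100 or more, were SORCS2 (r = 0.973), the class II chain HLA-DRB1 (0.972), the butyrophilin BTN2A2 (0.962), SECTM1 (0.957) and S100A2 (0.956).

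Other genes of the pathway changed in part. Among all genes, 9.97% were called higher and 8.39% lower in siYAP+TAZ. These shares stand beside the counts of this and the following lists over all 15 libraries. Without libraries 26 to 30, 19.9% of all genes were called in either direction, the share beside the counts of that fit. Of 12 genes of peptide loading and trimming, 4 rose, 2 fell and 6 were not called in siYAP+TAZ. Their median log2 fold change was 0.13 (3 rose, 2 fell and the median was 0.076 without libraries 26 to 30). TAPBP, or tapasin, which bridges class I chains to the transporter, rose by 0.51 on the log2 scale (SE 0.082, edgeR adjusted p = 2.84e-04). Its relative TAPBPL, which edits peptides outside the loading complex, had 0.78 (SE 0.17, edgeR adjusted p = 0.00342), and ERAP2, which trims peptides in the endoplasmic reticulum, 0.37 (SE 0.12, edgeR adjusted p = 0.0415). BLMH, a cytosolic peptidase, fell by 0.36 on the log2 scale (SE 0.074, edgeR adjusted p = 0.00204). Of 15 genes of the constitutive proteasome core, 1 fell, PSMA7 at -0.20 (SE 0.061, edgeR adjusted p = 0.0270), and 14 were not called (3 fell without libraries 26 to 30, and 0 in edgeR when counts were scaled by library size). Their log2 fold changes were negative in 15 of 15 with TMM and in 13 of 15 when counts were scaled by library size. Of 3 inducible proteasome genes outside the members, PSMB10 rose, its log2 fold change being 0.58 (SE 0.15, edgeR adjusted p = 0.0112).

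Of 21 regulators of class I transcription, 5 rose, 2 fell and 14 were not called in siYAP+TAZ, with a median log2 fold change of 0.15. NLRC5, the transactivator that binds class I promoters, had 478, 532 and 580 normalized counts in siControl and 706, 823 and 888 in siYAP+TAZ, without overlap. NLRC5 rose by 0.61 on the log2 scale (SE 0.12, edgeR adjusted p = 0.00113). In the single knockdowns it was 0.42 and 0.45, not called. RFX5, a subunit of the X box complex, rose by 0.39 (SE 0.075, edgeR adjusted p = 0.00126), IRF1, an activator that binds response elements, by 0.47 (SE 0.11, edgeR adjusted p = 0.00571), and its relative IRF2 by 0.46 (SE 0.12, edgeR adjusted p = 0.0119). NFKB1, which encodes the p50 subunit of NF-kB, fell by 0.43 on the log2 scale (SE 0.11, edgeR adjusted p = 0.0130). Without libraries 26 to 30, 5 regulators rose and 0 fell in edgeR, so that the call of NFKB1 was lost.

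The class II pathway, which presents peptides to CD4 T cells, was read in siYAP+TAZ as well. Of its 13 measured genes, 8 rose and 5 were not called, with a median log2 fold change of 1.06 (11 rose without libraries 26 to 30, with a median of 0.86). The peptide exchange factor genes HLA-DMB and HLA-DMA rose by 1.45 (SE 0.26, edgeR adjusted p = 6.45e-04) and 1.14 (SE 0.12, edgeR adjusted p = 5.39e-06), and the chains HLA-DPA1 and HLA-DPB1 by 1.18 (SE 0.28, edgeR adjusted p = 0.00941) and 1.09 (SE 0.30, edgeR adjusted p = 0.0189). CD74, the invariant chain, had 6046, 6093 and 7844 normalized counts in siControl and 10931, 10827 and 14844 in siYAP+TAZ. It rose by 0.87 (SE 0.25, edgeR adjusted p = 0.0322), with the same high libraries 26 to 30 as the class I members. CIITA, the class II transactivator, was not called at 0.72 (SE 0.30, edgeR adjusted p = 0.120), although its within-run log2 ratios were 0.71, 0.59 and 0.79.

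Among 10 measured class I-like molecules and natural killer ligands, 4 rose, 1 fell and 5 were not called, with a median log2 fold change of 0.39. Without libraries 26 to 30, 4 rose and 0 fell in edgeR, and the median was 0.11. MR1, which presents vitamin B metabolites, rose by 1.04 (SE 0.18, edgeR adjusted p = 5.18e-04), RAET1G, a ligand of the receptor NKG2D, by 0.89 (SE 0.26, edgeR adjusted p = 0.0216), HFE, a regulator of iron uptake, by 0.80 (SE 0.15, edgeR adjusted p = 8.72e-04), and FCGRT, the neonatal Fc receptor chain, by 0.74 (SE 0.14, edgeR adjusted p = 9.99e-04). HFE, MR1 and FCGRT pair with B2M like the classical chains. RAET1G was scarce, with a mean of 36.3 normalized counts in siControl and 67.7 in siYAP+TAZ. The more abundant MICA and MICB of the same list averaged 1706 and 2018 in siControl and, lower, 1510 and 1682 in siYAP+TAZ. Of the 10 genes, 7 had a positive log2 fold change. Of 23 measured interferon-stimulated genes, 14 rose, 0 fell and 9 were not called in edgeR, with a median of 0.61 (15 rose without libraries 26 to 30). The guanylate-binding protein genes GBP4 and GBP2 rose by 1.89 (SE 0.44, edgeR adjusted p = 0.00962) and 1.87 (SE 0.15, edgeR adjusted p = 2.05e-07), and the antiviral genes OAS2 and MX1 by 1.16 (SE 0.14, edgeR adjusted p = 2.57e-05) and 1.03 (SE 0.24, edgeR adjusted p = 0.00774). The value of GBP4 leaned on library 30, with 96.3, 117 and 299 normalized counts in siYAP+TAZ against 35.7, 37.9 and 67.6 in siControl, and was 1.55 and still called without libraries 26 to 30.

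**Figure D5:**
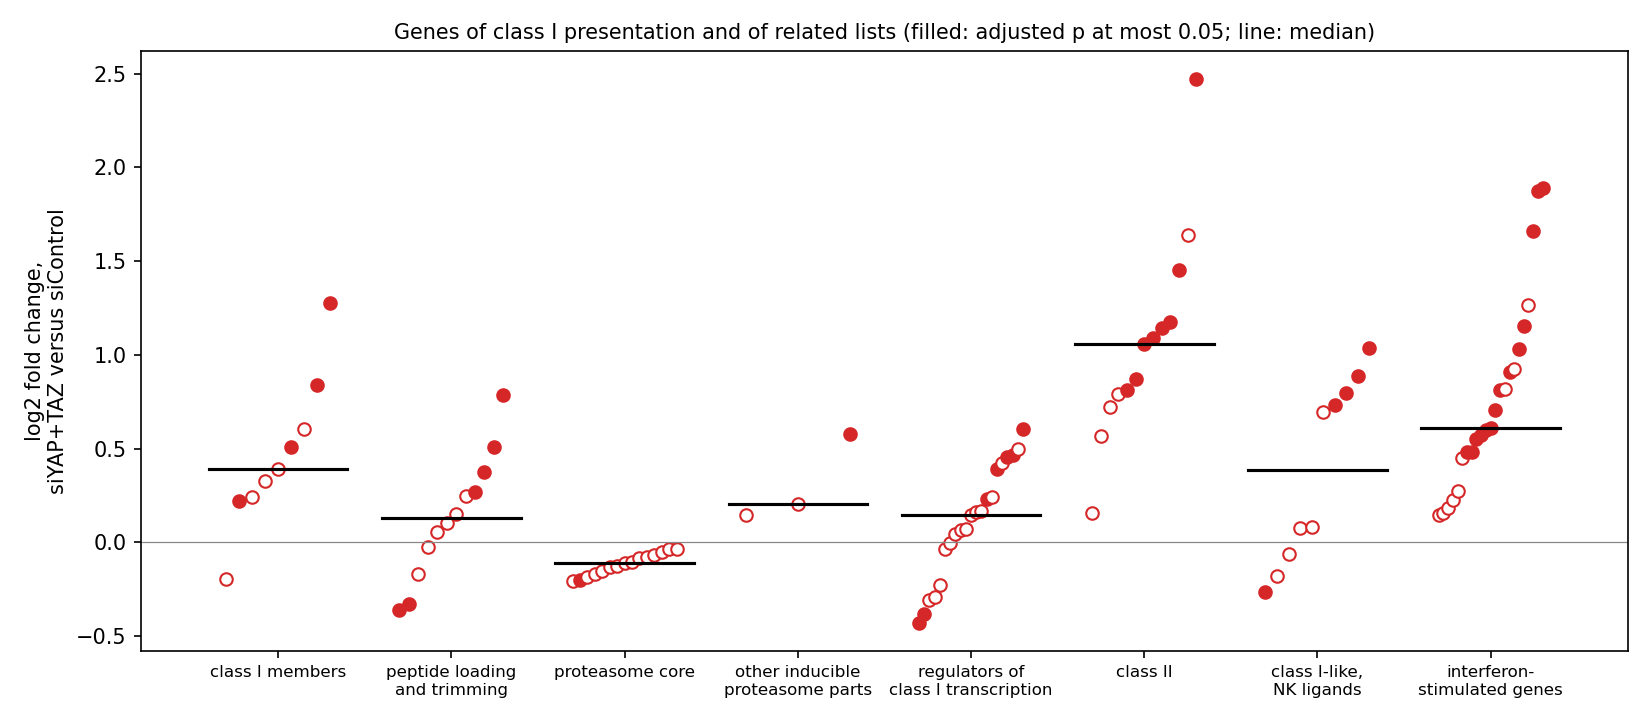
Log2 fold change in siYAP+TAZ against siControl (vertical axis) of the 9 members and of 7 related gene lists, with 1 point per gene, filled at an edgeR adjusted p of at most 0.05, and a line at the median of each list. The medians run from -0.11 in the proteasome core to 1.06 in class II, with 0.39 in the members.

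Leukocytes carry much class I and class II RNA, so their markers were read beside these lists. Of 12 leukocyte genes 5 were measured, and PTPRC, which marks leukocytes as CD45, never exceeded 6 reads in a library. The summed normalized counts of the 5 genes were 745, 806 and 880 in siControl and 1812, 1794 and 1817 in siYAP+TAZ, without overlap. They were 882, 864 and 893 in Control, 1283, 1127 and 1261 in siYAP, and 968, 912 and 999 in siTAZ, so library 26 to 30 was the highest of its group in 4 of 5 groups. Nearly all of this was LAPTM5, a lysosomal membrane protein gene with a mean of 43.9 CPM, which rose by 1.22 on the log2 scale (SE 0.077, edgeR adjusted p = 1.97e-08). CD14, a co-receptor for lipopolysaccharide, rose by 1.20 (SE 0.24, edgeR adjusted p = 0.00197) at a mean of 1.12 CPM. LYZ and CORO1A were not called, and the part of these genes in the members' values was not tested.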

How the data were processed

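The authors prepared polyadenylated RNA, sequenced single reads, trimmed them with cutadapt, aligned them with STAR 2.4.2a to GRCh38 with GENCODE release 34 in the UTAP pipeline, and deposited raw counts of reads per gene. Their normalized values, rlog values and DESeq2 comparisons (fold changes and p-values for pairs of groups) stand in the same table and were not used here. Samples were grouped by their titles, and all 15 libraries were used.

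Tests used edgeR 4.0.16 under R 4.3.3 after TMM scaling (robust quasi-likelihood, 1 coefficient per group, no block) over all 18858 genes, each of which reached 5 reads in at least 1 library. P-values were adjusted by the Benjamini-Hochberg method, and calls were made at 0.05, and separately with a log2 fold change past 1 in either direction as well, the thresholds the methods give. The tests were first tried on simulated counts. Total counts per library of 18696737 to 30107312 leave counting error small for most members and larger for HLA-F. As alternatives, DESeq2 1.42.0 was run as the methods describe, beside limma-voom (limma 3.58.1), other scalings and filters, fewer groups per fit, Control as the reference, a block for the run of library numbers, and leaving out each library. The fit without libraries 26 to 30 was chosen after seeing the data.

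The members and gene lists were chosen with earlier results of these data known. Genes named beside the members were the siRNA targets, PSMB5, PSMB6, PSMB7, PSMB10, TAPBP, NLRC5, RFX5, IRF1, CIITA and CD74, at most 4 called genes per list with the largest absolute log2 fold change in siYAP+TAZ and a mean of at least 20 normalized counts, the 5 genes most like the members' profile, and cell type markers. MICA and MICB were named as well, as abundant genes of the list with natural killer ligands. Of 4 endothelial and 4 fibroblast markers 1 each was measured, CLDN5 and LUM, neither above 9 reads. Coordinates, canonical transcript lengths, overlaps and shared stretches of 50 bases come from GENCODE release 44 on the same build, promoters from RefSeq. Promoter motifs were chosen after the member promoters had been looked at, and the X2 box, planned earlier, was dropped. Other class I genes were not analysed here, and 1 gene of the lists is not reported here.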

Additional observations from a re-analysis of the deposited data

How the results depend on the processing

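No log2 fold change of a member that was called under any setting changed its sign. For siYAP+TAZ against siControl the count of members called was 4, and between 4 and 6 with DESeq2, limma-voom, other scalings, other filters, fewer groups, Control as the reference or without libraries 26 to 30, with 17.7% to 23.7% of all genes called. Leaving out 1 library gave 0 to 4 called and 0 to 2 past both thresholds, where 1 was past both with all libraries. For siTAZ the count was 0 in edgeR, 2 with DESeq2, 5 without libraries 26 to 30, and 0 to 1 with a library left out (0.361% to 4.78% of all genes). For siYAP+TAZ against siYAP it was 0, and 2 without libraries 26 to 30 (7.76% of all genes). The fits without libraries 26 to 30 or with a library left out have fewer samples, and why each call moved was not tested.

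With the run of library numbers as a replicate block, 9 members were called in siYAP+TAZ (8 higher, and TAP2 lower; 28.6% of all genes), 7 in siTAZ with 1 past both thresholds (10.3%), 1 in siYAP (PSMB9; 6.1%) and 5 in siYAP+TAZ against siYAP (14.6%). The libraries come from independent experiments, but no label assigns them to one, so this is a hint from the data, not the design: after removal of group means, libraries of different groups in the same run correlated with r over 0.1 in 26 of 30 pairs (median 0.39), against 16 of 60 pairs from different runs (median -0.32). With that block, edgeR called 1 of the 2 siRNA targets lower in siYAP, 1 in siTAZ and 0 in siYAP+TAZ. With 3 libraries per group, calls near the threshold can change when a library is left out, and HLA-F has few reads.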
